A study of Mus musculus with 22 samples.

Results

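Among 10 genes of the S100 calcium-binding protein family, S100a1 differed most clearly between the kinds of transplanted bone marrow. In both fat depots its mean was lower with Gipr-/- marrow than with WT marrow, and with Gipr-/-S100a9-/- marrow it lay near the WT marrow level. The fall from WT marrow passed the test in neither depot alone. It passed averaged over both depots, a contrast chosen after S100a1 had been seen to be low in both. The alarmin genes S100a8 and S100a9 did not pass the test between any kinds of marrow. The members are S100a8, S100a9, S100a1, S100a4, S100a6, S100a10, S100a11, S100a13, S100a16 and S100b. They were found as the features of the deposited table whose platform annotation carries 1 of these symbols, which gave 10 genes of 19337 genes with a symbol, each measured by 1 feature.

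The arrays were 1-colour whole-transcript arrays of 12 samples of epididymal fat (epiWAT), the pad beside the testis, and 10 samples of inguinal subcutaneous fat (ingWAT). All mice were male C57BL/6J (Envigo) bone marrow chimeras, which had 6 weeks for the marrow to reconstitute and then 14 weeks on a high-fat diet, 60% of its calories being fat. The sources used here do not give their age. The marrow was WT, Gipr-/- (lacking the receptor of the gut hormone GIP, which is secreted in response to food) or Gipr-/-S100a9-/-, called doubly deficient marrow here. In epiWAT each kind of marrow had 4 arrays; in ingWAT WT marrow had 4, Gipr-/- marrow 3 and doubly deficient marrow 3. The recipients of WT and of Gipr-/- marrow were WT, and the sources used here do not give the recipient of doubly deficient marrow. With a WT recipient the gene is missing only from cells that descend from the marrow, while adipocytes, vessels and other tissue of the recipient keep it. The labels do not say that each array is a separate mouse, nor which epiWAT and ingWAT samples came from 1 mouse, so p-values here reflect only how these samples vary.

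S100 proteins are small proteins with EF-hand domains that bind calcium, mostly as dimers, and then bind target proteins. S100A8 and S100A9 pair to form calprotectin, which fills the cytoplasm of neutrophils and monocytes and acts as an alarm signal through TLR4 and RAGE once it is released. Other members are intracellular partners of annexins, the cytoskeleton and calcium-handling proteins in many cell types, and S100B is known from glial cells and is also made by adipocytes. In whole fat, fewer cells of a type and less RNA per cell cannot be told apart.

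Values are on the scale of the deposited table, read as log2, so a difference of 1 is a 2-fold change on that reading. Adipocyte markers were bright in every array, with a mean log2 value between 14.8 and 16.9, and mesothelium markers, of the lining that covers the epididymal pad, were higher in every epiWAT array than in any ingWAT array. Markers of other tissues were high in several samples. Scores of epididymis and testis germ cell markers, taken as the mean log2 deviation from each gene's 22-array mean, reached 6.44 and 7.59 in single epiWAT arrays, and 4 of the 12 (WT marrow 2, Gipr-/- marrow 1 and doubly deficient marrow 1 and 3) had a first principal component above 50. Skeletal muscle markers were on average 4.95 to 7.59 log2 units above their mean over all arrays in 3 of 4 ingWAT arrays with WT marrow. They were 5.22 above it in ingWAT array 2 of doubly deficient marrow. B cell and lymph node markers were 5.10 and 5.15 above theirs in 2 of 3 ingWAT arrays with doubly deficient marrow. S100a1, S100a8, S100a11 and most list genes that passed are given below with and without the epiWAT or lymph node arrays they rest on; Ppargc1a and Hmgb1 were not refitted.

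The members spanned nearly the whole brightness range of the array. The feature of S100a11 was brighter than those of 99.7% of genes, with a mean of 17.6 over the 22 arrays, and that of S100a10 brighter than 97.1% (13.8). Those of S100a6 (11.001), S100a1 (10.6), S100a13 (9.84), S100a16 (9.79) and S100a4 (8.25) followed. The alarmin genes were dim: S100a8 averaged 5.67 and S100a9 5.52, and S100b 4.34. These are brightness values of different probes and do not rank the genes by RNA amount. S100b fell among the 25% dimmest genes in epiWAT and over all arrays, so it entered only the ingWAT fit and is given for epiWAT from a fit without that filter.

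The members also differed in how much arrays of 1 group scattered. S100a8 had a within-group SD of 0.94, larger than that of 91.6% of genes, and S100a4 (0.81) and S100a6 (0.80) were above 88.4% and 88.0% of genes. S100a11 (0.41), S100a10 (0.41) and S100b (0.40) scattered less than the median gene (0.44). The spread decides what size of difference the design could call: for S100a8 in epiWAT the standard error of a difference was 0.66, and for S100a10 it was 0.22.

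**Figure D1:**
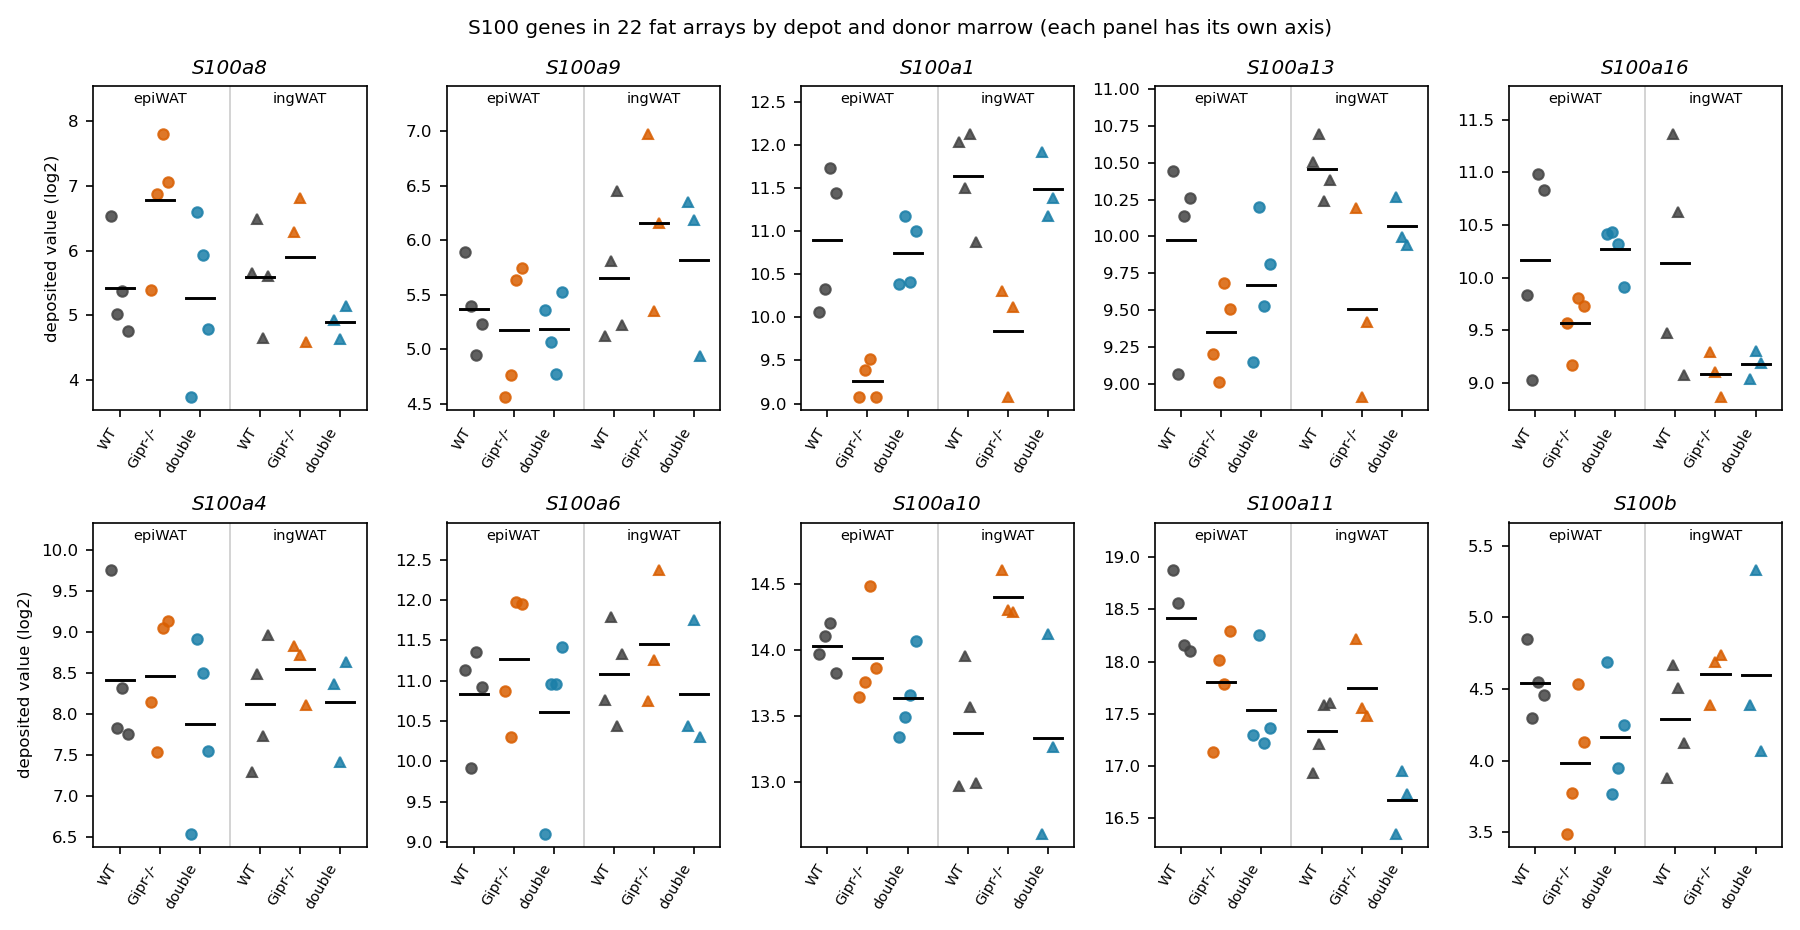
Deposited log2 value (y axis, own scale per panel) of each S100 gene in every array, 1 point per array, grouped by depot and donor marrow ("double" is doubly deficient marrow); the horizontal bar is the group mean. The Gipr-/- marrow arrays of S100a1 lie below the arrays of both other groups in each depot, whereas the groups of S100a9 overlap throughout.

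S100a1 is known as a calcium sensor of cardiac and skeletal muscle that acts on the ryanodine receptor and calcium pump, and is present at lower levels in other tissues. In epiWAT its log2 value was 10.06, 10.32, 11.74 and 11.45 after WT marrow. With Gipr-/- marrow it was 9.07, 9.39, 9.51 and 9.07, and with doubly deficient marrow 10.38, 11.18, 10.41 and 11.003. All 4 Gipr-/- marrow arrays were thus below all 8 others of that depot, and the groups of WT and doubly deficient marrow overlapped. In ingWAT the values were 12.04, 11.50, 12.13 and 10.87 after WT marrow, 10.31, 9.08 and 10.12 after Gipr-/- marrow, and 11.91, 11.18 and 11.38 after doubly deficient marrow. The order was the same: the 3 Gipr-/- marrow arrays were the lowest of the 10. Doubly deficient minus WT marrow was -0.15 in epiWAT (95% confidence interval -0.94 to 0.64) and -0.14 in ingWAT (-0.96 to 0.67).

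The difference between Gipr-/- and WT marrow in S100a1 was -1.63 in epiWAT (SE 0.36, 3.09-fold lower; limma, adjusted p = 0.35) and -1.80 in ingWAT (SE 0.37, 3.48-fold lower; adjusted p = 0.060), so neither depot alone passed the threshold of 0.05 after adjustment over 14502 genes. Doubly deficient minus Gipr-/- marrow was 1.48 in epiWAT (SE 0.36; adjusted p = 0.23) and 1.65 in ingWAT (SE 0.40; adjusted p = 0.044), where S100a1 passed. The depots gave like sizes: the difference between depots in the first contrast was -0.17 (SE 0.55) and in the second 0.18 (SE 0.57), neither past the threshold. A contrast averaged over both depots, chosen after S100a1 had been seen to be low in both, gave a fall of S100a1 after Gipr-/- marrow of -1.71 (SE 0.27, 95% interval -2.28 to -1.14; limma, adjusted p = 0.010). It gave a rise of 1.57 from Gipr-/- to doubly deficient marrow (SE 0.28, interval 0.97 to 2.16; adjusted p = 0.0082). These p-values treat the epiWAT and ingWAT samples as independent, and they would be too small if both came from the same mice.

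The fall of S100a1 averaged over both depots was called under all 30 alternatives tried (limma, adjusted p from 0.00069 to 0.043), and the rise under 29 of 30. None of these 30 had the skeletal muscle score as a covariate, which was fitted in ingWAT alone. The rise was lost without the 2 ingWAT arrays of doubly deficient marrow with high lymph node markers, at 1.41 (SE 0.36; limma, adjusted p = 0.10), a fit in which 1 of 14502 genes passed and in which ingWAT had 1 array of that marrow, assumed to vary like the others. Without the 4 epiWAT arrays with a high first component the values were -1.78 (adjusted p = 0.010) and 1.71 (adjusted p = 0.012). The ingWAT call was less firm: it held in 8 of 19 alternatives. It was lost with the skeletal muscle score as a covariate (1.53, adjusted p = 0.051), and without the array of doubly deficient marrow 1 (1.44, adjusted p = 0.18) or 3 (1.71, adjusted p = 0.11), the pair with high lymph node markers, or both (1.34, adjusted p = 0.32). It was also lost without any 1 of the 3 Gipr-/- marrow arrays (adjusted p from 0.064 to 0.18), without WT marrow array 1 or 2, with no low-value filter (0.0503) and without a trend in the variance model (0.060).

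Because S100a1 is a muscle gene and muscle markers were high in several ingWAT samples with WT or doubly deficient marrow, both were set side by side. In ingWAT the skeletal muscle score lay between -1.84 and 7.59 after WT marrow, -0.90 and 2.18 after Gipr-/- marrow and -0.82 and 5.22 after doubly deficient marrow. Its group means were 4.47, 0.63 and 2.37 in the same order, lowest with Gipr-/- marrow like those of S100a1. Over the 10 ingWAT arrays S100a1 and this score had r = 0.56 (permutation p = 0.095, adjusted p = 0.19 over 6 relations with markers chosen after the data were seen) and a Spearman rho of 0.65 (p = 0.049, adjusted 0.15), and without the 2 arrays farthest from the median of S100a1 the r was 0.68. The WT marrow array with the lowest muscle score, at -1.84, had an S100a1 value of 10.87. That value lay below the other WT marrow arrays (11.50 to 12.13) and the doubly deficient marrow arrays (11.18 to 11.91). It lay above all 3 Gipr-/- marrow arrays (9.08 to 10.31). In epiWAT the muscle score was low in all 12 arrays, but it also moved with the marrow: it lay between -2.67 and -2.34 after WT, -2.20 and -1.68 after Gipr-/- and -2.48 and -1.91 after doubly deficient marrow. There S100a1 was lower where the score was higher (r = -0.56, permutation p = 0.056, adjusted 0.17; rho -0.55, p = 0.066), and with group means subtracted the r was -0.03. With the muscle score as a covariate the ingWAT difference between Gipr-/- and WT marrow was -1.54 (limma, adjusted p = 0.16). The part of muscle content in the S100a1 values was not tested further.

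Brown and beige adipocyte markers moved beside S100a1 in ingWAT, where the mean score of general adipocyte markers stayed between 0.18 and 0.22. Of 6 brown and beige adipocyte markers tested in ingWAT, 6 were lower with Gipr-/- than with WT marrow (median -1.54) and 6 higher with doubly deficient than with Gipr-/- marrow (median 0.75), beside medians of 0.03 and -0.03 over all genes, and 0 were called. Averaged over both depots 1 of 5 was called lower after Gipr-/- marrow: Ppargc1a, a coactivator of mitochondrial genes, at -1.94 (SE 0.42; limma, adjusted p = 0.042), named after its values were seen. In epiWAT 10 of 11 general adipocyte markers were lower with Gipr-/- than with WT marrow (median -0.35, beside -0.02), 0 of them called. Their mean score in epiWAT was 0.13 after WT, -0.27 after Gipr-/- and -0.37 after doubly deficient marrow. The mean of doubly deficient marrow hid a wide spread, with scores of -1.62, 0.23, -0.49 and 0.41 in arrays 1 to 4. Array 1, the lowest, had an epididymis score of 6.44. In ingWAT the mean score was 0.22, 0.22 and 0.18 in the same order. Of the ingWAT arrays with WT marrow, array 3 had the highest skeletal muscle score (7.59) and the highest brown and beige score (1.55). Array 4 had the lowest of both (-1.84 and 0.17). The part of muscle content in the brown and beige marker differences was not tested. Nor was the part of adipocyte content or state in the S100a1 values.

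S100a13 lies beside S100a1 on chromosome 3 on the opposite strand and is known to take part in the release of FGF1 without a signal peptide. For Gipr-/- minus WT and doubly deficient minus Gipr-/- marrow it gave smaller differences with the sign of those of S100a1, whereas doubly deficient minus WT marrow was further from 0 than for S100a1, at -0.31 in epiWAT and -0.38 in ingWAT. In ingWAT it was 10.50, 10.69, 10.24 and 10.38 after WT marrow, 10.19, 8.91 and 9.42 after Gipr-/- marrow, and 10.27, 9.9996 and 9.94 after doubly deficient marrow. The Gipr-/- marrow group lay wholly below the WT marrow group and overlapped the doubly deficient group. The difference between Gipr-/- and WT marrow was -0.95 in ingWAT (SE 0.29; limma, adjusted p = 0.16), -0.62 in epiWAT (SE 0.32; adjusted p = 0.72) and -0.79 averaged over both depots (SE 0.22, interval -1.25 to -0.32; adjusted p = 0.100), not past the threshold. Without the 4 epiWAT arrays with a high first component the averaged difference was -0.91 and passed (adjusted p = 0.027). S100a16, next on the chromosome and a broadly expressed member, was -1.05 in ingWAT (SE 0.45; adjusted p = 0.31) and -0.60 in epiWAT (SE 0.38; adjusted p = 0.79), neither called.

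The promoters of S100a1 and S100a13 are shown because the starts of this pair face away from each other over a short stretch. In RefSeq (GRCm38.p6), 9 of the 10 members had a promoter window, S100a10 being the exception, and the windows of S100a1 (minus strand) and S100a13 (plus strand) overlap by 164 of their 280 bases. The 104 bases between the tabulated starts, at chr3:90514331-90514434 and written on the plus strand, hold 3 CG pairs, in capitals:
S100a1 and S100a13 between starts: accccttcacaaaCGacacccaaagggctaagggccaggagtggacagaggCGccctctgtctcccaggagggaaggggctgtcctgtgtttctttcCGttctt
The window of S100a1 held 10 CG pairs and that of S100a13 14, against a median of 6 over 32851 windows of 280 bases, and neither held, on either strand, any of the 5 motifs searched: the TATA box (TATAAA), the GC box (GGGCGG), the CCAAT box (CCAAT, in 36.1% of windows), the PU.1 core (GAGGAA) and a C/EBP pattern (TTNNGNAAT).

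Across arrays S100a1 and S100a13 had r = 0.59 over the 12 epiWAT arrays (permutation p = 0.044, rho 0.56, p = 0.062) and 0.81 over the 10 ingWAT arrays (p = 0.0064, rho 0.66, p = 0.045), but after adjustment over the 45 pairs of members in a depot neither r passed (0.25 and 0.29). Without the 2 arrays farthest from the median of S100a1 the values were 0.49 and 0.24, so the ingWAT relation rests on those arrays. S100a1 and S100a16 had r = 0.74 in epiWAT (p = 0.0066, adjusted 0.10) with a rho of 0.85 (p = 0.00093, adjusted 0.042; r = 0.64 without those 2 arrays), and r = 0.44 in ingWAT (p = 0.20). The genes most like S100a1 over the 22 arrays, with each depot's mean subtracted, were Irs1 (r = 0.85), which encodes an adaptor of the insulin receptor, Met (0.85), the receptor of hepatocyte growth factor, and Csad (0.83), an enzyme of taurine synthesis, then Mif4gd (0.83) and Mknk2 (0.82). This search for S100a1 was added after its difference was seen, and the arrays behind each r share the same groups.

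**Figure D2:**
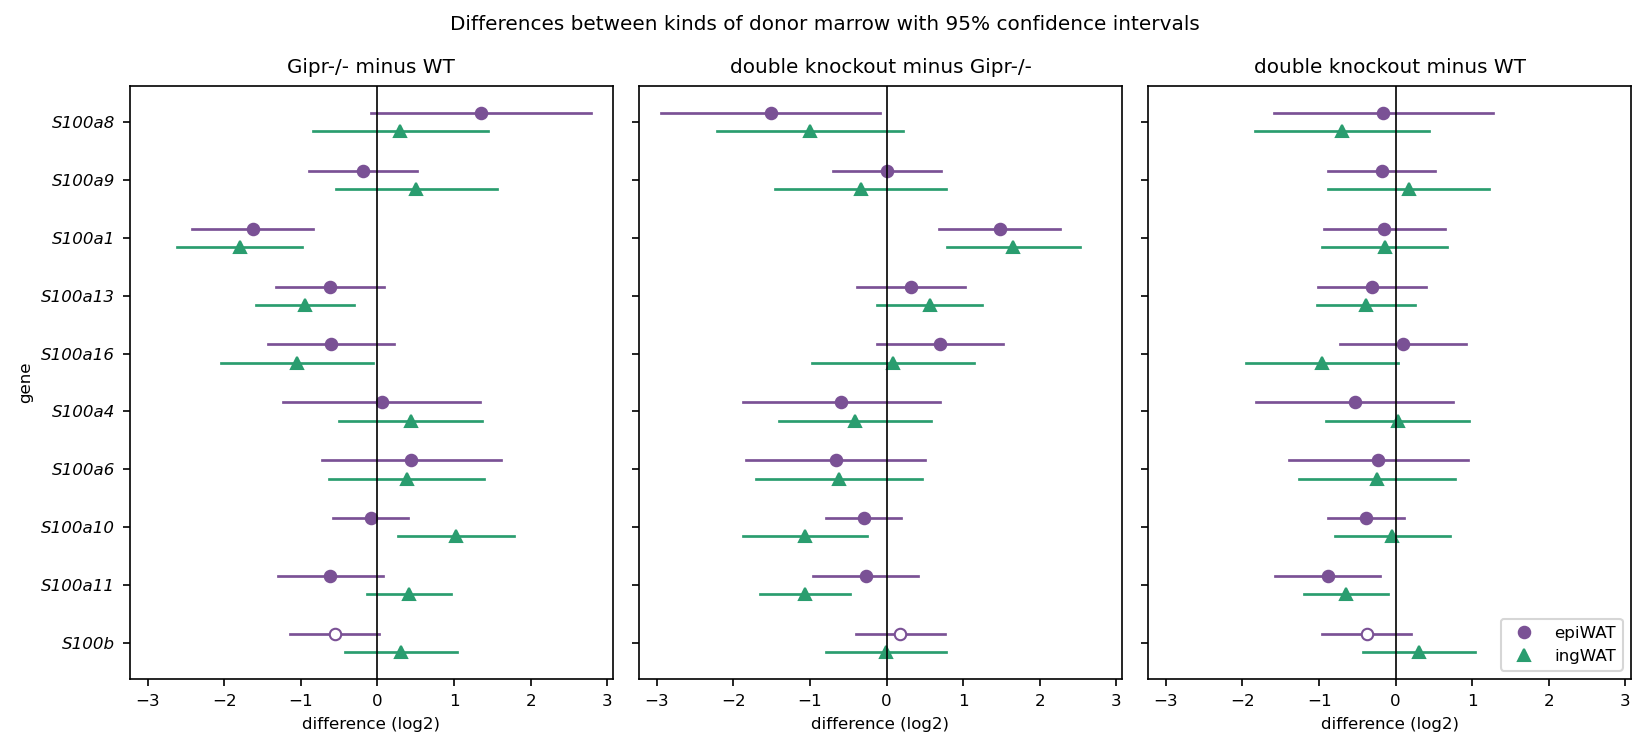
Difference in log2 value (x axis) between kinds of donor marrow for each S100 gene (y axis), with its 95% confidence interval, in epiWAT (circles) and ingWAT (triangles); open circles for S100b come from the fit without a filter on dim genes. S100a1 lies left of 0 in the left panel and right of 0 in the middle panel in both depots, and at -0.15 and -0.14 in the right panel.

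S100a8 encodes the smaller subunit of calprotectin. In epiWAT its log2 value was 6.53, 5.03, 5.38 and 4.76 after WT marrow, 5.39, 6.86, 7.80 and 7.06 after Gipr-/- marrow, and 3.74, 6.59, 5.93 and 4.80 after doubly deficient marrow. The 3 highest of the 12 arrays had Gipr-/- marrow, but the groups overlapped. Gipr-/- minus WT marrow was 1.35 (SE 0.66, interval -0.08 to 2.79; limma, adjusted p = 0.71), and doubly deficient minus Gipr-/- marrow was -1.51 (SE 0.66, interval -2.94 to -0.08; adjusted p = 0.44). Without the 4 epiWAT arrays with a high first component these differences of S100a8 were 1.68 (adjusted p = 0.39) and -1.55 (adjusted p = 0.39). In ingWAT S100a8 was 5.65, 6.49, 4.65 and 5.602 after WT, 6.29, 6.81 and 4.599 after Gipr-/- and 4.93, 4.63 and 5.14 after doubly deficient marrow. The 3 arrays of doubly deficient marrow were close together at the low end, within the range of the others, and doubly deficient minus Gipr-/- marrow was -0.998 (SE 0.56; adjusted p = 0.38).

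S100a9, the other subunit and the gene removed from doubly deficient marrow, was not high with Gipr-/- marrow in epiWAT. Its mean in epiWAT was 5.37 ± 0.40 (SD, n = 4) after WT, 5.18 ± 0.60 (n = 4) after Gipr-/- and 5.18 ± 0.33 (n = 4) after doubly deficient marrow. In ingWAT it was 5.65 ± 0.61 (n = 4), 6.16 ± 0.81 (n = 3) and 5.82 ± 0.77 (n = 3), with Gipr-/- minus WT marrow at 0.51 (SE 0.48), beside 0.30 (SE 0.52) for S100a8. Doubly deficient minus WT marrow was -0.18 in epiWAT (interval -0.89 to 0.52) and 0.17 in ingWAT (-0.88 to 1.22). A fall of 1 log2 unit in the deposited value lies outside both intervals. The feature was dim, with a mean of 5.52 over all arrays beside a lowest array median of 6.11. Whether so dim a feature could register a loss of S100a9 RNA was not tested, so the intervals settle nothing about such a loss. Where the probes lie relative to the deleted part is not stated in the sources used here, so S100a9 checks no label.

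No correlation between the pair passed in either depot. S100a8 and S100a9 had r = 0.18 over the 12 epiWAT arrays (permutation p = 0.58, rho 0.14, p = 0.67) and -0.20 over the 10 ingWAT arrays (p = 0.56, rho -0.26, p = 0.47). Without the 2 arrays farthest from the median of S100a8 they were 0.12 and -0.04, and with group means subtracted 0.30 and -0.34. Both genes were dim on the array.

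**Figure D3:**
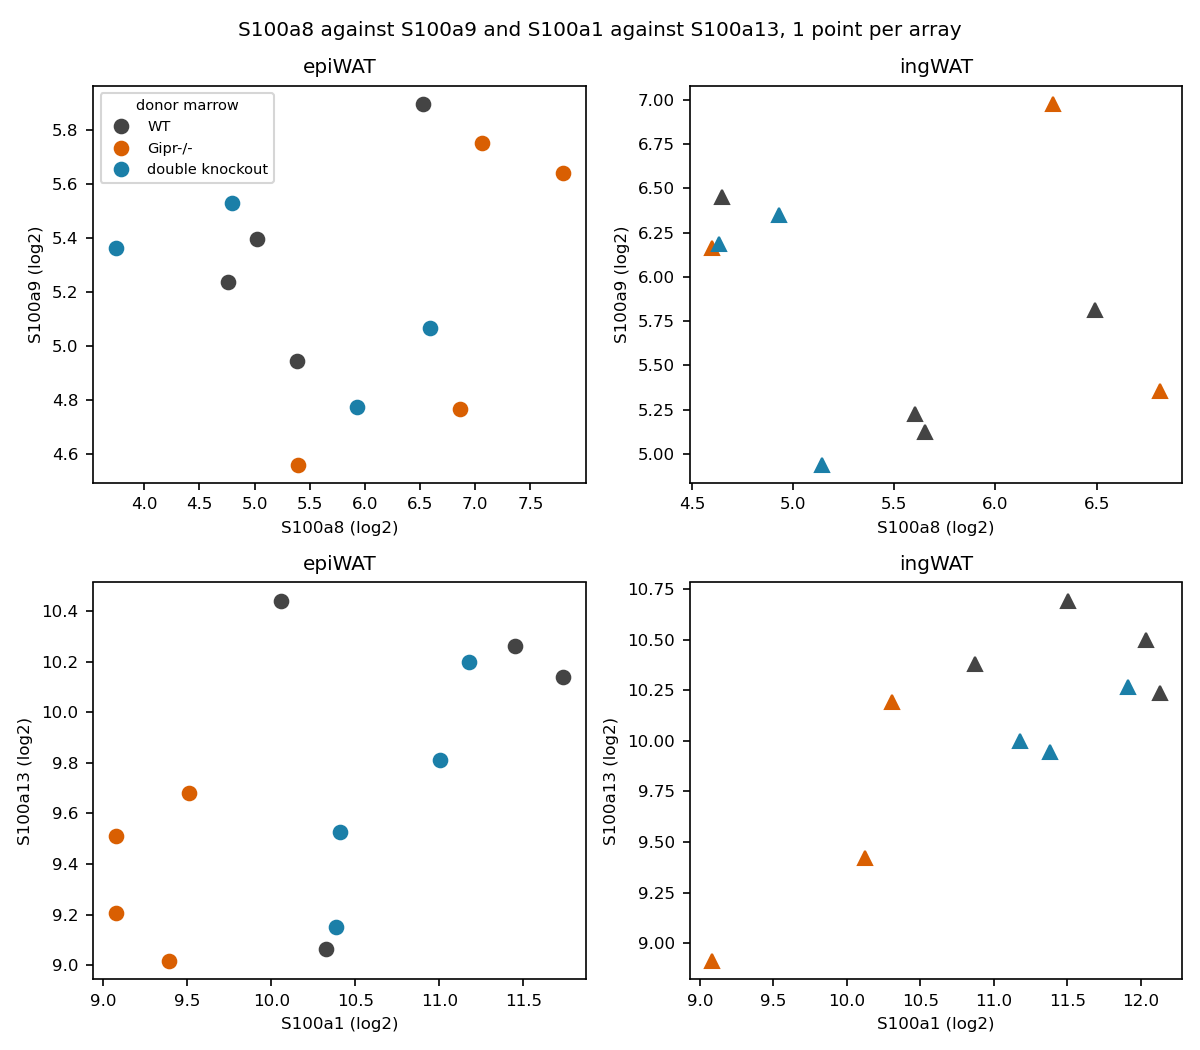
S100a9 against S100a8 (top) and S100a13 against S100a1 (bottom), both axes in log2 units, 1 point per array, coloured by donor marrow, with epiWAT on the left and ingWAT on the right. The points of the top panels show no common direction (r = 0.18 and -0.20), and in the bottom panels Gipr-/- marrow arrays sit at the low end of S100a1.

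The promoters of both alarmin genes are shown because the genes are neighbours with opposite strands and both windows hold the letters TATAAA. Each sequence runs from 250 bases before to 30 bases after the RefSeq start (GRCm38.p6), 5′ to 3′ on the gene's strand, at chr3:90668821-90669100 on the plus strand for S100a8 and chr3:90695692-90695971 on the minus strand for S100a9, with TATAAA in capitals:
S100a8: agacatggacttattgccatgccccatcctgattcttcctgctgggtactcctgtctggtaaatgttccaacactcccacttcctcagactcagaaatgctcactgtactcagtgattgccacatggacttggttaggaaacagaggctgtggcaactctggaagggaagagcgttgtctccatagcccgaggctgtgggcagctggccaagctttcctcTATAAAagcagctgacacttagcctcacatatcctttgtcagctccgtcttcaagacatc
S100a9: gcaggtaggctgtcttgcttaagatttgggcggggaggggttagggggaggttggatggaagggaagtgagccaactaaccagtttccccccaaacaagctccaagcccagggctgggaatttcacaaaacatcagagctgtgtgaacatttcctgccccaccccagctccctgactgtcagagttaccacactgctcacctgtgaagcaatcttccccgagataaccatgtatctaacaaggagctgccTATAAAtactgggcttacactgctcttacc
TATAAA, searched on both strands, was in the windows of S100a8, S100a9 and S100a4 and in 13.1% of all 32851 windows. In the S100a8 window it lies before the tabulated start. In the S100a9 window it begins at that start, so these matches are not placed alike and do not show a shared promoter element. S100a8 held GAGGAA 2 times (26.0% of windows hold it), and S100a9 held TTNNGNAAT once (10.99%) and GGGCGG once (34.7%). GAGGAA is the core of sites of PU.1 and TTNNGNAAT a pattern of C/EBP sites, both factors of myeloid cells; a match is only a run of letters in these windows.

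Neutrophils and monocytes make calprotectin in abundance, and the markers of each gave 1 call between kinds of marrow. Of 20 neutrophil markers 19 were on the array, and only 9 were bright enough for the epiWAT fit and 12 for the ingWAT fit; Ly6g is not among the symbols. None passed between kinds of marrow in epiWAT, and in ingWAT Lcn2, which adipocytes and epididymis also express, fell by 2.69 from Gipr-/- to doubly deficient marrow (SE 0.57; limma, adjusted p = 0.028). Of 8 monocyte markers tested in ingWAT 1 fell over the same contrast, Vcan, a matrix proteoglycan also made by fibroblasts, at -1.94 (SE 0.46; adjusted p = 0.044; named after its values were seen). The median of the 8 was -0.80, and in epiWAT 0 of 9 passed in any contrast. Without both doubly deficient arrays with high lymph node markers Lcn2 was at -2.40 (adjusted p = 0.20) and Vcan at -1.22 (adjusted p = 0.41). Mean neutrophil scores varied little, from -0.42 to 0.37 over all arrays. The markers were dim, with a mean log2 value from 4.46 to 5.25, below every array median (lowest 6.11). The small spread therefore does not show that neutrophil content was alike. S100a8 and the neutrophil score had r = 0.09 in epiWAT (permutation p = 0.78, rho 0.13, p = 0.70) and 0.56 in ingWAT (p = 0.091). The ingWAT rho was 0.70 (permutation p = 0.031, adjusted 0.15), not past the threshold. S100a9 and the score had r = -0.21 in epiWAT (permutation p = 0.52, rho -0.20, p = 0.53) and -0.50 in ingWAT (p = 0.14, rho -0.47, p = 0.18).

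S100a8 was high in epiWAT arrays with high macrophage markers. Over the 12 epiWAT arrays S100a8 and the mean of 11 macrophage markers had r = 0.86 (permutation p = 0.00039, adjusted p = 0.0023 over the 6 relations) and a Spearman rho of 0.81 (p = 0.0020, adjusted 0.012). Without the 2 arrays farthest from the median of S100a8 the r was 0.72, and with group means subtracted it was 0.82, which takes out the differences between kinds of marrow. Over the 8 epiWAT arrays without a high first component it was 0.90, or 0.85 with group means subtracted. In ingWAT the r was 0.58 (permutation p = 0.083, adjusted 0.19) and the rho 0.44 (p = 0.20, adjusted 0.31). The macrophage score itself lay between 0.31 and 1.42 in epiWAT with Gipr-/- marrow, -0.31 and 0.95 after WT marrow and -1.004 and 0.57 after doubly deficient marrow. The part of macrophage content in the S100a8 values was not tested.

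The genes most like S100a8 over 22 arrays were Dpep2 (r = 0.89), a membrane dipeptidase, Tm4sf19 (0.86), Lilr4b (0.85) and Cd300lb (0.83), both receptors of myeloid cells, and Gask1b (0.83). For S100a9 the highest values belonged to Wdr18 (r = 0.70), Mrpl35 (0.69), a mitochondrial ribosomal protein gene, Nme1 (0.68), Ftsj3 (0.68) and Tmem237 (0.67). These are descriptions over samples that share groups and tissue make-up.

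**Figure D4:**
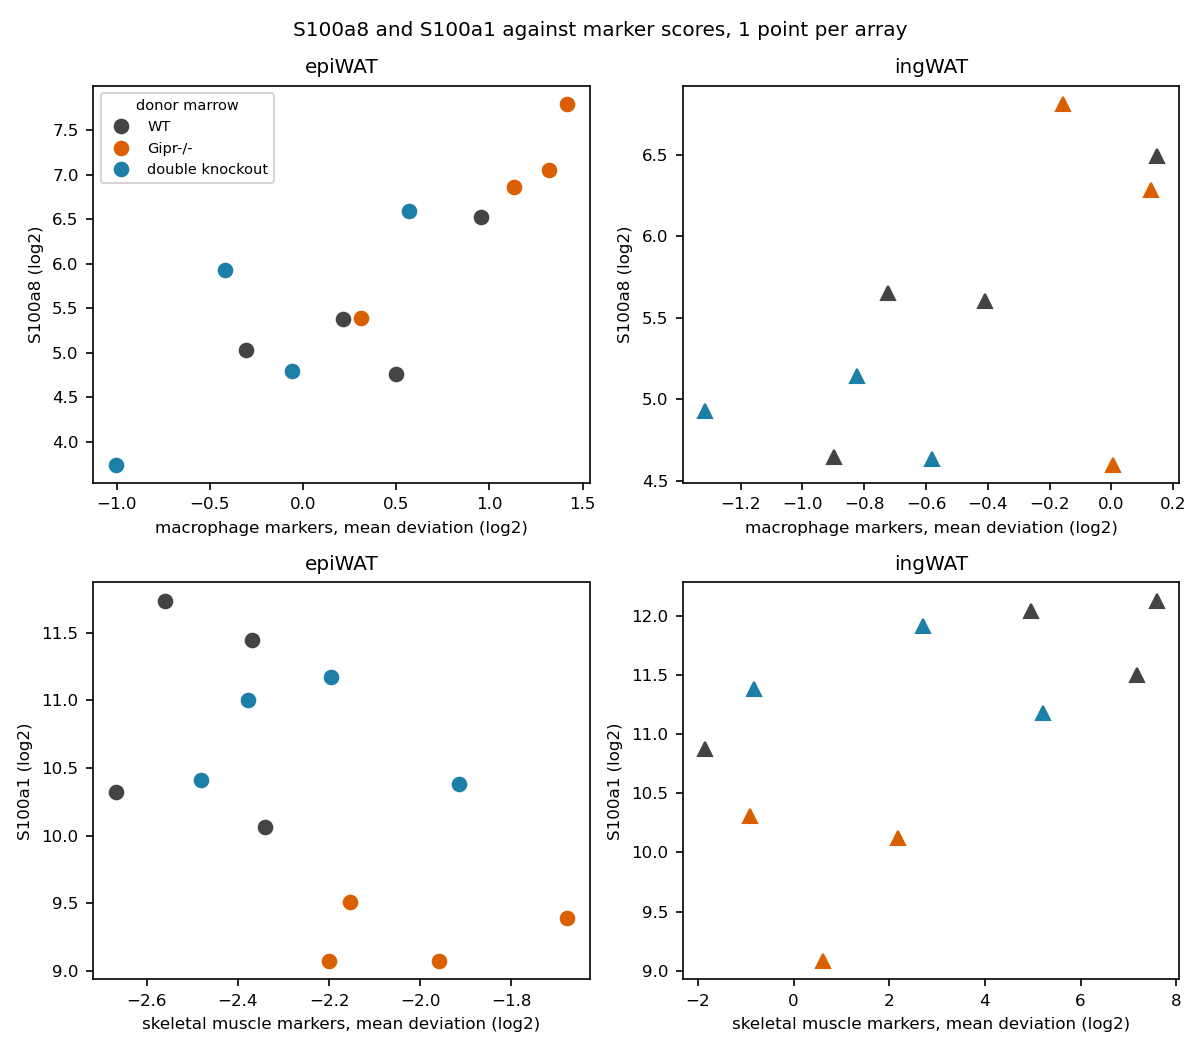
S100a8 against the macrophage marker score (top) and S100a1 against the skeletal muscle marker score (bottom), 1 point per array, coloured by donor marrow, epiWAT left and ingWAT right; a score averages, over the marker genes, how far each lies from its own 22-array mean. S100a8 rises with the macrophage score in epiWAT (r = 0.86), and the Gipr-/- marrow arrays are the lowest in S100a1 in each depot.

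S100a4 and S100a6 are calcium-binding proteins of fibroblasts, macrophages and other motile or dividing cells. Neither differed between kinds of marrow beyond its wide spread. In epiWAT S100a4 averaged 8.41 ± 0.93 (SD, n = 4) after WT, 8.47 ± 0.76 (n = 4) after Gipr-/- and 7.88 ± 1.06 (n = 4) after doubly deficient marrow, and in ingWAT 8.12 ± 0.75 (n = 4), 8.55 ± 0.39 (n = 3) and 8.14 ± 0.64 (n = 3). S100a6 ranged in its group means only from 10.6 to 11.5. Both were lowest of all in epiWAT array 1 of doubly deficient marrow, at 6.54 and 9.10, the array where S100a8 was lowest too and the macrophage score was -1.004. That array also had an epididymis score of 6.44 and the lowest adipocyte (-1.62) and endothelial (-1.68) scores of all 22, and the part of tissue make-up in these values was not tested. The genes most like S100a4 included Spi1 (r = 0.82), which encodes the myeloid factor PU.1, Slc15a3 (0.79), a peptide and histidine transporter of lysosomes, and H2-DMb1 (0.78), of the MHC class II pathway, beside Cacna1e (0.79) and Dusp9 (0.78). S100a8 and S100a4 had r = 0.76 in epiWAT (permutation p = 0.0043, adjusted 0.10 over 45 pairs).

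S100a10, the partner of annexin A2 in a complex at the plasma membrane, was highest with Gipr-/- marrow in ingWAT, while the other groups overlapped. There it was 12.97, 13.95, 13.57 and 12.998 after WT, 14.60, 14.30 and 14.29 after Gipr-/- and 12.61, 14.12 and 13.26 after doubly deficient marrow. The 3 Gipr-/- marrow arrays were above all others. Groups did not overlap for 15.4% of genes in Gipr-/- minus WT and 22.3% in doubly deficient minus Gipr-/- marrow. S100a10 was 1.03 higher with Gipr-/- than with WT marrow (SE 0.35, limma, adjusted p = 0.19). Neither this nor doubly deficient minus Gipr-/- marrow, at -1.07 (SE 0.37, adjusted p = 0.14), was called. Without both doubly deficient arrays with high lymph node markers, which are the lower 2 of that group, the latter was -0.28 (limma, adjusted p = 0.82). In epiWAT the same differences were -0.09 (SE 0.22) and -0.30 (SE 0.22), and the groups overlapped. The depots were not shown to differ: the difference between depots was 1.12 in the first contrast (SE 0.42; adjusted p = 0.53) and -0.77 in the second (SE 0.43; adjusted p = 0.46).

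S100a11, an annexin A1 partner and the brightest member, had the firmer depot difference. It was 18.87, 18.56, 18.16 and 18.10 in epiWAT and 16.94, 17.21, 17.58 and 17.60 in ingWAT with WT marrow, so that the depots did not overlap. With Gipr-/- marrow it was 17.13, 18.01, 17.78 and 18.29 in epiWAT and 18.21, 17.55 and 17.48 in ingWAT, which overlapped. With doubly deficient marrow it was 17.30, 18.25, 17.22 and 17.36 in epiWAT and 16.35, 16.95 and 16.74 in ingWAT, apart again. Over the 3 kinds of marrow S100a11 was lower in ingWAT, by a difference of -0.67 (SE 0.17, interval -1.03 to -0.30; limma, adjusted p = 0.019). This call held in 28 of 30 alternatives and was lost with median centring (-0.57, adjusted p = 0.061) and without the 2 ingWAT arrays with high lymph node markers (-0.58, adjusted p = 0.089).

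Between kinds of marrow S100a11 was lower in ingWAT with doubly deficient than with Gipr-/- marrow, with no overlap, by -1.07 (SE 0.27; adjusted p = 0.052), just short of the threshold, and it passed in 4 of 19 alternatives; without the 2 arrays with high lymph node markers it was -0.80 (adjusted p = 0.38). Doubly deficient minus WT marrow was -0.89 in epiWAT (SE 0.31; unadjusted p = 0.015, adjusted p = 0.999) and -0.65 in ingWAT (SE 0.25; adjusted p = 0.29), and -0.77 averaged over both (SE 0.21; adjusted p = 0.29).

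S100b, which is known from Schwann cells and adipocytes, stayed close to the dim end in every array, from 3.49 to 5.33. In ingWAT it averaged 4.29 ± 0.36 (SD, n = 4) after WT, 4.605 ± 0.19 (n = 3) after Gipr-/- and 4.596 ± 0.65 (n = 3) after doubly deficient marrow. In epiWAT it was 4.54 ± 0.23 (n = 4), 3.98 ± 0.45 (n = 4) and 4.16 ± 0.40 (n = 4), and Gipr-/- minus WT marrow was -0.56 without the filter (SE 0.27; limma, adjusted p = 0.76). S100b and the Schwann cell and nerve markers had r = 0.04 over the epiWAT arrays (permutation p = 0.90) and -0.12 over the ingWAT arrays (p = 0.74), and with group means subtracted 0.66 and -0.04. The genes most like it had r of at most 0.70 (Cbx8, a Polycomb protein gene, then Atrn, Cep20, Vmn1r155 and Vps13d).

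Counted over the family, 0 of 9 members passed in each of the 3 epiWAT contrasts, where 0% of the 14502 genes tested passed (limma). At an unadjusted p under 0.05 there were 1 member for Gipr-/- minus WT marrow, 2 for doubly deficient minus Gipr-/- and 1 for doubly deficient minus WT, beside 1052, 1555 and 444 genes in all. In ingWAT 0 of 10 members passed for Gipr-/- minus WT marrow (0.234% of genes), 1 of 10 for doubly deficient minus Gipr-/- (3.48%) and 0 for doubly deficient minus WT (0%). There 4, 3 and 1 members had an unadjusted p under 0.05 in the same order, beside 2180, 2745 and 1958 genes in all. The members whose groups did not overlap numbered 1 of 9 (5.04% of genes), 2 of 9 (6.05%) and 0 (2.32%) in epiWAT, in the same order of contrasts, and 3 of 10 (15.4%), 3 of 10 (22.3%) and 0 (11%) in ingWAT. These counts are too small to set the family apart from the background.

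Averaged over both depots 1 of 9 members passed for Gipr-/- minus WT marrow (0.572% of genes) and 1 for doubly deficient minus Gipr-/- (1.92%), S100a1 each time, and 0 for doubly deficient minus WT (0.0069%). The median difference of the 9 members was 0.16, -0.50 and -0.26 in these contrasts, beside 0.01, -0.01 and -0.01 over all genes. The members did not share a direction. For Gipr-/- minus WT marrow 5 were higher and 4 lower, and for doubly deficient minus Gipr-/- marrow 3 were higher and 6 lower. S100a1 was among the 4 and the 3, and so were S100a13 and S100a16. Contrasts that share the Gipr-/- marrow arrays are not independent of each other: a low Gipr-/- group gives a fall in the first and a rise in the second.

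Between depots 0 of 9 members passed with WT marrow (1.97% of genes), 0 with Gipr-/- marrow (0.614%) and 0 with doubly deficient marrow (3.92%). Averaged over the 3 kinds of marrow, where 12.9% of genes passed, 2 of 9 did: S100a11, described above, and S100a1, which was 0.69 higher in ingWAT (SE 0.23; limma, adjusted p = 0.0497). The S100a1 call held in 11 of 30 alternatives and was 0.49 (adjusted p = 0.23) without the 4 epiWAT arrays with a high first component and 0.58 (adjusted p = 0.18) without the 2 ingWAT arrays with high lymph node markers. S100a9 was 0.64 higher in ingWAT (SE 0.25; adjusted p = 0.091), not called. No member passed a test of whether a marrow difference itself differed between depots, where 0%, 0.717% and 0% of genes passed (limma) and 1153, 2000 and 1238 genes had an unadjusted p under 0.05 for the 3 contrasts in the order above.

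The proteins that S100 members bind were followed with a list of 15 genes, 12 of them on the array and tested. From Gipr-/- to doubly deficient marrow in ingWAT, 2 of 12 fell and 0 rose, where 3.48% of genes passed: Fgf1, whose release involves S100A13, at -2.48 (SE 0.37; limma, adjusted p = 0.0072), and Anxa1, an annexin bound by S100A11, at -1.76 (SE 0.43; adjusted p = 0.047). Anxa2, the partner of S100A10, was at -1.03 (SE 0.26; adjusted p = 0.054), not called. The median of the 12 was -0.55, beside -0.03 over all genes. Of the 3 arrays with doubly deficient marrow 2 had lymph node scores of 5.10 and 5.15. Without both, Fgf1 was at -2.34 (SE 0.54; adjusted p = 0.14) and Anxa1 at -0.88 (SE 0.52; adjusted p = 0.49), a fit in which 0 genes passed. The part of lymph node tissue was not tested further. For Gipr-/- minus WT marrow in ingWAT 0 of 12 passed, with Fgf1 at 1.42 (SE 0.34; adjusted p = 0.085) and Anxa1 at 1.44 (SE 0.40; adjusted p = 0.13). In epiWAT 0 of 12 passed in any contrast, and averaged over both depots Anxa1 fell, at -1.65 (SE 0.38; adjusted p = 0.028), and so did Fgf1, at -1.43 (SE 0.34; adjusted p = 0.037) from Gipr-/- to doubly deficient marrow. Both passed without the 4 epiWAT arrays with a high first component (Anxa1 -1.30, adjusted p = 0.041; Fgf1 -1.29, adjusted p = 0.018) and neither without the lymph node arrays (Anxa1 -1.22, adjusted p = 0.25; Fgf1 -1.36, adjusted p = 0.19). Between depots, averaged over marrow, where 12.9% of all genes passed, Fgf1 was lower in ingWAT (-1.16, SE 0.27, limma, adjusted p = 0.011). Without the 4 epiWAT arrays with a high first component it was -1.50 (adjusted p = 0.00024).

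Some macrophage markers fell over the same contrast. In ingWAT 2 of 11 fell from Gipr-/- to doubly deficient marrow and 0 rose, where 3.48% of genes passed: Mrc1, the mannose receptor, at -1.68 (SE 0.29; limma, adjusted p = 0.013), and Mertk, a receptor for apoptotic cells, at -1.76 (SE 0.36; adjusted p = 0.025). This pair was named after its values were seen. The median of the 11 markers was -0.92, beside -0.03 over all genes. Without both arrays with high lymph node markers Mrc1 was at -1.01 (adjusted p = 0.21) and Mertk at -1.50 (adjusted p = 0.20). Endothelial markers were also lower over this contrast, 9 of 9 with a median of -0.56 and 0 called. Macrophages also express Anxa1, S100a4, S100a10 and S100a11. The part of macrophage, endothelial or lymph node content in these differences was not tested.

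Receptors and signalling genes of alarmins showed no call between kinds of marrow: 0 of 14 tested, of 15 on the array, passed in any contrast of either depot or averaged over both. In ingWAT the smallest p from Gipr-/- to doubly deficient marrow belonged to Hmgb1, another alarmin, at 0.90 (SE 0.24; limma, adjusted p = 0.061), Bsg, a binding partner of S100A9, at -0.89 (SE 0.25; adjusted p = 0.077), and Ly96, the TLR4 co-receptor, at -1.38 (SE 0.54; adjusted p = 0.18). In epiWAT for the same contrast they were Casp1 at -1.42 (SE 0.63; adjusted p = 0.45), Cd36 at -0.97 (SE 0.45; adjusted p = 0.48) and Il1b at -0.58 (SE 0.33; adjusted p = 0.56). Between depots, averaged over marrow, Il33 (-1.34, limma, adjusted p = 0.014) and Tlr2 (-0.43, adjusted p = 0.043) were lower in ingWAT, where 12.9% of all genes passed. Without the 4 epiWAT arrays Il33 was at -0.84 (adjusted p = 0.041) and Tlr2 at -0.60 (adjusted p = 0.0063). With doubly deficient marrow alone, where 3.92% of genes passed, Hmgb1 was higher in ingWAT (1.12, SE 0.25, adjusted p = 0.018). These calls do not set the list apart from the background.

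Of the remaining S100 and fused-type S100 genes, 10 of 12 listed were matched on the array, S100a7l2 and Flg being unmatched. Of the 10, 2 were bright enough to test in epiWAT (S100a14 and Rptn), and 6 in ingWAT (with S100a3, S100a7a, Tchh and Crnn). None passed in any contrast. In ingWAT their standard errors were large, 2.18 for S100a3 (Gipr-/- minus WT marrow, -1.92; limma, adjusted p = 0.75), a gene known from hair follicles. The mean score of the 10 was highest in ingWAT array 2 of doubly deficient marrow (3.12) and array 2 of WT marrow (2.77). There skin and gland epithelium markers scored 2.99 and 3.24. Those markers also scored 2.25 in WT marrow array 1, where the 10 scored -0.11. The part of skin in these values was not tested.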

How the data were processed

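Gene expression was measured on 22 arrays. The authors deposited 1 table of 21793 features with values from 1.92 to 19.9 on a log scale, read here as log2; per the submitters' processing notes Partek 6.6 was among the tools, and its role, the log base, background correction and normalization are not given in the sources used here. Arrays carry no read depth, so their number limits the precision. The platform annotation named 19341 features with 1 symbol; 2452 are unnamed here, and of 4 genes with 2 features the brighter was kept. Within-group arrays correlated with r from 0.911 to 0.984, and 0 were identical.

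Groups came from the labels, and arrays are numbered in accession order, which pairs nothing. Each depot was fitted apart with limma 3.58.1 in R 4.3.3 (lmFit, eBayes with a trend) after the 25% of genes with the lowest mean were left out, which left 14502. Depot contrasts and the contrast averaged over both depots, added later, came from a fit of 22 arrays in 6 groups. Tests were two-sided, adjusted by Benjamini-Hochberg over all genes tested, at 0.05. The fit was tested on simulated data. Correlations used 100000 permutations. The members and the gene lists (other S100 genes, S100 partner proteins, alarmin receptors and signalling, and markers of neutrophils, monocytes, macrophages, endothelium, Schwann cells, adipocytes, brown and beige adipocytes, mesothelium, skeletal muscle, skin and gland epithelium, epididymis, germ cells and B cells) were chosen with earlier results of these data known. All members were named; from the first 3 lists and the neutrophil list, members past the threshold or the 3 with the smallest p could be named, and the 5 genes most alike were named for S100a8, S100a9, S100a4, S100b and, added later, S100a1. Alternatives covered the low-value filter, the variance trend, array weights, quantile normalization, median centring, 1 fit of all arrays, each array left out and, added later, 4 epiWAT arrays or 2 ingWAT arrays left out and a muscle covariate. The muscle covariate was used only for the marrow contrasts within ingWAT. Promoters came from RefSeq (GRCm38.p6).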

Additional observations from a re-analysis of the deposited data

Results flagged for a closer look

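S100a11 in epiWAT replicate 2 of doubly deficient marrow was 18.25, with the next array of its group at 17.36; the gap made up 0.86 of the group's range, above Dixon's limit at the 95% level for 4 values. Of 40 groups of 4 arrays examined this was the 1 flag, and chance alone gives about 1 in 20. No member's marrow difference was called as different between the depots.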

How the results depend on the processing

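The counts of members past the threshold stayed within 1.5 times in 365 cases and moved in 52. Leaving out the 2 ingWAT arrays with high lymph node markers gave a count of 0 for doubly deficient minus Gipr-/- marrow in ingWAT and over both depots, and 0 between depots over all marrow. With array weights the count was 1 for Gipr-/- minus WT marrow in epiWAT, 1 in ingWAT and 3 over both depots, 3 for doubly deficient minus Gipr-/- marrow in ingWAT and 3 over both depots, and 1 between depots with WT marrow. The ingWAT count for Gipr-/- minus WT marrow was 1 with the stricter filter and 1 with all 22 arrays in one fit, and for doubly deficient minus Gipr-/- marrow it was 2 with the stricter filter or median centring and 0 with no filter, no trend or the muscle covariate. The depot count averaged over marrow was 1 with no filter, no trend, median centring or the 4 epiWAT arrays left out, and the averaged Gipr-/- minus WT count was 2 without those arrays.

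Leaving out 1 array at a time gave counts from 0 to 1 for Gipr-/- minus WT marrow in ingWAT, 0 to 3 for doubly deficient minus Gipr-/- in ingWAT, 0 to 1 between depots with WT marrow, 1 to 2 between depots over all marrow, and 1 to 2 for both averaged marrow contrasts. Some signs turned. Without the 2 lymph node arrays doubly deficient minus Gipr-/- marrow in ingWAT was 0.020 for S100a9 and 0.30 for S100a6, and doubly deficient minus WT over both depots was 0.18 for S100a10. S100a9 in epiWAT for Gipr-/- minus WT marrow was 0.17 with array weights, 0.027 without the 4 arrays and -0.38 to 0.018 leaving out single arrays; for doubly deficient minus Gipr-/- it was -0.34, -0.088, -0.001975 with median centring, and -0.20 to 0.19. S100a8 in epiWAT for doubly deficient minus WT marrow was 0.26, 0.14 and -0.60 to 0.35. Leaving out single ingWAT arrays gave -0.16 to 0.95 for S100a8 (Gipr-/- minus WT), and -0.75 to 0.10 (doubly deficient minus Gipr-/-) and -0.092 to 0.61 (doubly deficient minus WT) for S100a9. S100a4 in ingWAT for Gipr-/- minus WT was -0.069 with the muscle covariate. Another 33 small member differences were followed as a count: 21 changed sign somewhere and 0 passed. The causes were not tested. The stricter filter left S100a8 and S100a9 out. The number of arrays, 3 or 4 in a group, limits every interval.

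No paired analysis was possible because the labels carry no replicate numbers that groups share.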
